A study of Homo sapiens with 6 samples.

Results

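Rescued U2OS cells were compared with the 2 libraries of the series that carried a high-salt expression state, to ask which transcripts were lower or higher 4 h after the hypertonic medium was replaced. U2OS is a human osteosarcoma line, here with a stable GFP-DCP1A transgene (DCP1A is a subunit of the mRNA decapping complex) kept under G418 selection in all groups. Total RNA without ribosomal RNA was sequenced in 6 libraries, 2 for each label: isotonic medium with 150 mM sodium, hypertonic medium with 300 mM sodium for 4 h, and rescue, in which 4 h of hypertonic medium were followed by 4 h of isotonic medium. Of the 6 libraries 4 were used here: rescue 1 and 2 on one side, and on the other the libraries labelled hypertonic 1 and isotonic 2, called the osmotic-response pair below. The pair was selected on measured values, namely its high counts of SLC38A2, NFAT5 and FOS and the likeness of its whole profiles.

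The label of isotonic 2 conflicts with its profile. Its SLC38A2 level was 3074 CPM (the count scaled by library size with TMM factors), beside 3050 CPM in hypertonic 1, whereas the library labelled isotonic 1 stood at 346 CPM and the one labelled hypertonic 2 at 351 CPM. Over 13100 genes the log2 ratio of isotonic 2 to hypertonic 1 had an SD of 0.0962 with 4 genes apart by 2-fold, against an SD of 0.831 with 2251 such genes between isotonic 2 and isotonic 1. Isotonic 1 and hypertonic 2 were likewise close, with an SD of 0.0761, and they are quoted below only as levels. Which label is right was not tested, and every statement about the pair refers to the libraries by their labels. Because the whole profile chose the pair, its contrast with rescue is given as a description with no test. The rescue cells were also harvested 4 h later than the others with no isotonic group of that age, so the end of hypertonicity and the later harvest cannot be told apart.

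Cells shrink in hypertonic medium, and they answer by taking up and making small organic solutes. The transcription factor NFAT5 drives the genes of solute carriers and of aldose reductase in this response, and stress kinases switch on early transcription factor genes such as FOS and EGR1. TXNIP and ARRDC4 encode alpha-arrestins that restrain glucose uptake, and their genes are known targets of the glucose-sensing factor MondoA with its partner MLX.

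The promoters of TXNIP and ARRDC4, which had among the largest differences here, and of HSPA8, the chaperone gene with the largest deficit in rescue, are shown for the 250 bases before the start of the gene (RefSeq, GRCh38.p14). All 3 were matched by symbol.

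TXNIP, chr1:145996580-145996829, minus strand, capitals mark a pair of CACG letters with 7 bases between them and 2 bases after: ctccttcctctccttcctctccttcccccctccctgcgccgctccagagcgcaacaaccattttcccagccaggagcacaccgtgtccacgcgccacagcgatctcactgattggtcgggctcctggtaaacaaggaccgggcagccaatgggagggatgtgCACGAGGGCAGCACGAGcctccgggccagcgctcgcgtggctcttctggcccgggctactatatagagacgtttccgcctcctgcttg

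ARRDC4, chr15:97960453-97960702, plus strand, capitals mark CACGTG: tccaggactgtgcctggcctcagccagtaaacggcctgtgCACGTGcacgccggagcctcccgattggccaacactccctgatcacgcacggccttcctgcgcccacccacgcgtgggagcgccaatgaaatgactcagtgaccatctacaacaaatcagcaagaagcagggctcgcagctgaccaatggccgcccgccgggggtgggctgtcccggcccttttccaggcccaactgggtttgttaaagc

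HSPA8, chr11:123062137-123062386, minus strand, capitals mark GAANNTTC: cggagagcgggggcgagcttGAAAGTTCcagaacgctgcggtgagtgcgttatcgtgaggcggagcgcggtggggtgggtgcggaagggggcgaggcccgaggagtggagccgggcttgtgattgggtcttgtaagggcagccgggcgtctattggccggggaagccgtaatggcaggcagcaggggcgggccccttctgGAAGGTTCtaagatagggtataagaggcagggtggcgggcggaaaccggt

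The marked letters lay 88 to 72 bases before the start in TXNIP, 210 to 205 bases before it in ARRDC4, and 230 to 223 and 50 to 43 bases before it in HSPA8. Both strands were searched, over the 250 bases before and 50 bases after each start. The TXNIP pattern, CACG with CACG, is the form of a carbohydrate response element, and it was present in 0.652% of 27305 RefSeq promoters. The E-box CACGTG was present in 7.43% of them, and GAANNTTC, the inner part of a heat shock element, in 6.87%. Among the 1418 matched promoters of genes higher in rescue, 1.2% held the carbohydrate pattern and 7.69% the E-box. These shares were 0.668% and 11.4% for genes lower in rescue, and 0.946% and 10.1% for all genes of at least 5 CPM. Among the 1198 matched promoters of genes lower in rescue, 3.92% held GAANNTTC, against 4.72% of the 10145 matched promoters of all genes of at least 5 CPM. A match is a description of the letters and not a site of binding.

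Rescue differed from the pair across a large share of the transcriptome. A gene was counted as lower or higher when its mean over the 4 libraries was at least 5 CPM and all 4 ratios of a rescue library to a library of the pair were past 2-fold in the same direction. By this rule 1556 of 13241 genes were lower in rescue (11.8%) and 1880 were higher (14.2%). The median log2 ratio of all these genes was -0.18, and it was -0.00146 with upper quartile scaling and 0.194 with library totals alone, so the ratios below are read against that shift. Upper quartile scaling gave 1000 lower and 2365 higher of 13303 genes, and library totals gave 610 lower and 2913 higher of 13310. DESeq2 size factors gave 1499 lower and 1916 higher of 13253. List counts given below under another scaling are to be set beside these, and not beside 11.8% and 14.2%. Just inside and outside the rule, NR4A3 had every ratio past 2-fold at a log2 ratio of -1.17, while NR4A1, at -1.01, did not.

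**Figure D1:**
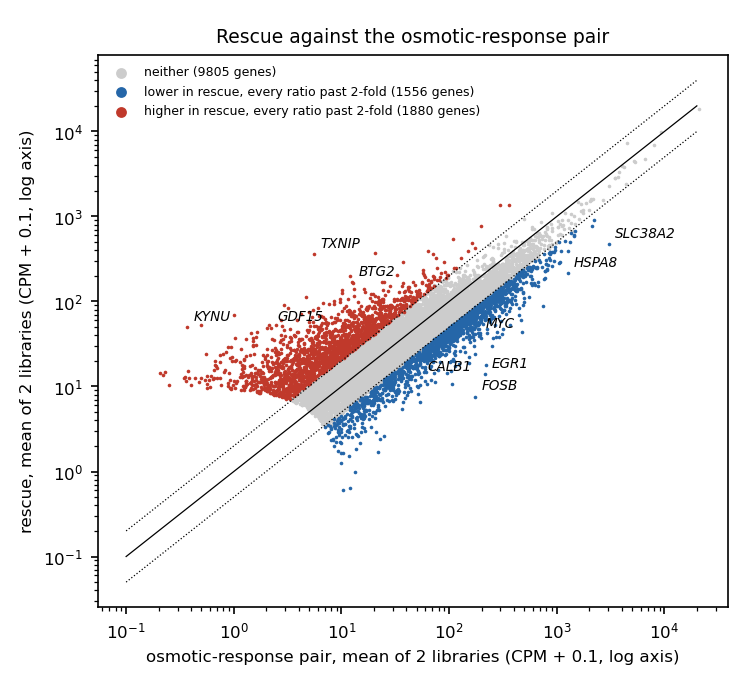
Mean level of each gene in rescue (vertical axis, CPM + 0.1, log scale) against its mean in the osmotic-response pair (horizontal axis, same scale), each the mean of 2 libraries, for the 13241 genes of at least 5 CPM; the solid line marks equal levels and the dotted lines 2-fold. The 1556 genes lower in rescue (blue) reach up to SLC38A2 at the high end, and the 1880 higher ones (red) extend furthest at low levels in the pair, where TXNIP and KYNU lie. A gene near 0 in the pair reaches a mean of 5 CPM only through a high level in rescue. The limit on the mean thus sets this shape at low levels, and it is no result.

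A test was made only with the libraries grouped as labelled, rescue against hypertonic, since that grouping uses no measured value. The edgeR quasi-likelihood test with Benjamini-Hochberg adjustment, fitted over all 6 libraries, called 2508 of 18208 genes lower in rescue (13.8%) and 1796 higher (9.86%); with upper quartile scaling the calls were 1448 lower and 2137 higher. Its hypertonic group holds hypertonic 1, of the pair, and hypertonic 2, which differed from it by 2-fold at 2220 of 13100 genes. A gene that was high in hypertonic 1 alone therefore had a wide spread in this test. Leaving out rescue 1, rescue 2, hypertonic 1 or hypertonic 2 left 0 calls each time by edgeR, although 3815, 3675, 5837 and 6631 genes kept a p below 0.05 before adjustment; a side with a single library then borrows its spread from the rest. "Rose" and "fell" below refer to this test, and an adjusted p is from it. Nothing in the labels states that the 2 libraries of a group are separate cultures, so the spread behind its p-values may be technical.

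Total counts ranged from 90196278 to 105991428 per library. The rescue libraries had fewer genes with no count, 690 and 699 against 1248 in hypertonic 1 and 1270 in isotonic 2. In them 381 olfactory receptor genes, which are silent in most cells outside the nose, summed to 113.6 and 123.2 CPM without TMM scaling, versus 39.8 and 40.2 CPM in the pair. The part of this in the higher low-level genes of rescue was not tested. Of the bone markers COL1A1 was at 1065 and 975 CPM in the pair and 776 and 716 CPM in rescue, while COL1A2, IBSP and SP7 were under 0.5 CPM in all 4 libraries. Leukocyte markers summed to 13.55 and 15.52 CPM in the pair and 22.7 and 21.1 CPM in rescue, with CD3E at 0 in both libraries of the pair. Epithelial markers summed to 649.8 and 639.2 CPM in the pair and 433.4 and 407.5 CPM in rescue, nearly all from KRT8 and KRT18. EPCAM went the other way, at 3.98 and 3.56 CPM in the pair and 11 and 10.1 CPM in rescue, and rose in the labelled test (adjusted p = 0.0224). The endothelial markers are given with the switched-on genes below.

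Among the counted genes, all of at least 5 CPM, the 10 with the largest deficits in rescue included FOSB, EGR1 and EGR2, which encode early transcription factors. FOSB, an AP-1 subunit (chromosome 19, 45467995 to 45475179, plus strand), was at 173 and 176 CPM in hypertonic 1 and isotonic 2 and at 7.66 and 7.36 CPM in rescue 1 and 2, a 22.9-fold lower level. Its row overlaps that of ERCC1, so the value is uncertain. EGR1 (chromosome 5, 138465490 to 138469315) was at 209 and 221 CPM in the pair and 13.8 and 14.0 CPM in rescue, 15.4-fold lower. Rescue thus lay below the 29.7 and 31.6 CPM of EGR1 in isotonic 1 and hypertonic 2, whereas FOSB was above their 1.38 and 1.51 CPM. EGR2, a relative of EGR1, was 12.9-fold lower in rescue than in the pair. None of these passed the labelled test, with adjusted p = 0.410, 0.170 and 0.323.

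PRDM1, a zinc finger repressor, was at 215 and 224 CPM in the pair and 18.4 and 17.1 CPM in rescue. ARAP2, a GTPase-activating protein of the cell cortex, was at 465 and 482 CPM versus 45.1 and 42.9 CPM, which was below its 93.1 and 95.3 CPM in isotonic 1 and hypertonic 2. PHF13, a chromatin reader, was 9.98-fold lower. The other 4 of the 10 largest were low-level genes: the stem cell factor SOX2 (12.8 and 11.2 versus 0.519 and 0.565 CPM), the semaphorin SEMA4A, the T-box factor TBX1 and the disulfide isomerase AGR2, between 9.63 and 18.8-fold lower. The rows of PRDM1, PHF13 and TBX1 overlap those of ATG5, KLHL21 and GNB1L.

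Of 12 measured EGR, NR4A and IER early genes 8 were lower in rescue than in the pair and 0 higher (all genes: 11.8% and 14.2%), with a list median 1.14 below that of all genes on the log2 scale. ARC, an early gene of the synapse and cytoskeleton, was at 455 and 469 CPM in the pair and 63.6 and 58.3 CPM in rescue. IER5 was at 337 and 324 CPM versus 91.9 and 83.9 CPM. SRF, the factor that drives many early genes, was 2.82-fold lower. NR4A2 stood at 32.8 and 34.1 CPM in the pair and 38.7 and 34.8 CPM in rescue, a ratio of 1.10. None of the 14 genes tested passed the labelled test.

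AP-1 genes divided by subunit. FOS was at 38.2 and 38.5 CPM in the pair and 8.99 and 8.04 CPM in rescue, and FOSL1 at 257 and 249.3 CPM versus 38.2 and 35.96 CPM. JUN, the main partner of FOS, was level at 80.4 and 81.2 CPM in the pair and 85.1 and 79.4 CPM in rescue. ATF3, a stress factor of the same family, was above the pair, at 98.4 and 95.9 versus 67.5 and 71.4 CPM, or 1.40-fold. FOS served to choose the pair. In all, 3 of 9 were lower and 0 higher, and without FOS 2 of 8 (all genes: 11.8% lower); the list median of -0.24 was -0.06 with upper quartile scaling and 0.13 with library totals, so no direction is given for the family.

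Some genes of KLF factors and DUSP phosphatases were lower in rescue. KLF5 was at 677 and 674 CPM in the pair and 173 and 164 CPM in rescue, still above the 34.8 and 35.1 CPM of isotonic 1 and hypertonic 2. KLF2 was 6.73-fold lower in rescue, and KLF16 was 3.42-fold lower and fell in the labelled test (log2 fold change -1.55, adjusted p = 0.0335). Of 11 KLF genes 4 were lower and 0 higher (all genes: 11.8% and 14.2%). Of 8 DUSP genes, whose products switch MAP kinases off, 4 were lower (all genes: 11.8%), or 3 with DESeq2 size factors, 2 with upper quartile scaling and 1 with library totals. DUSP8, among the lower ones, was at 12.1 and 11.9 CPM in the pair versus 3.51 and 3.19 CPM. DUSP1 was higher, at 11.4 and 11.99 CPM in the pair and 43.0 and 41.6 CPM in rescue.

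**Figure D2:**
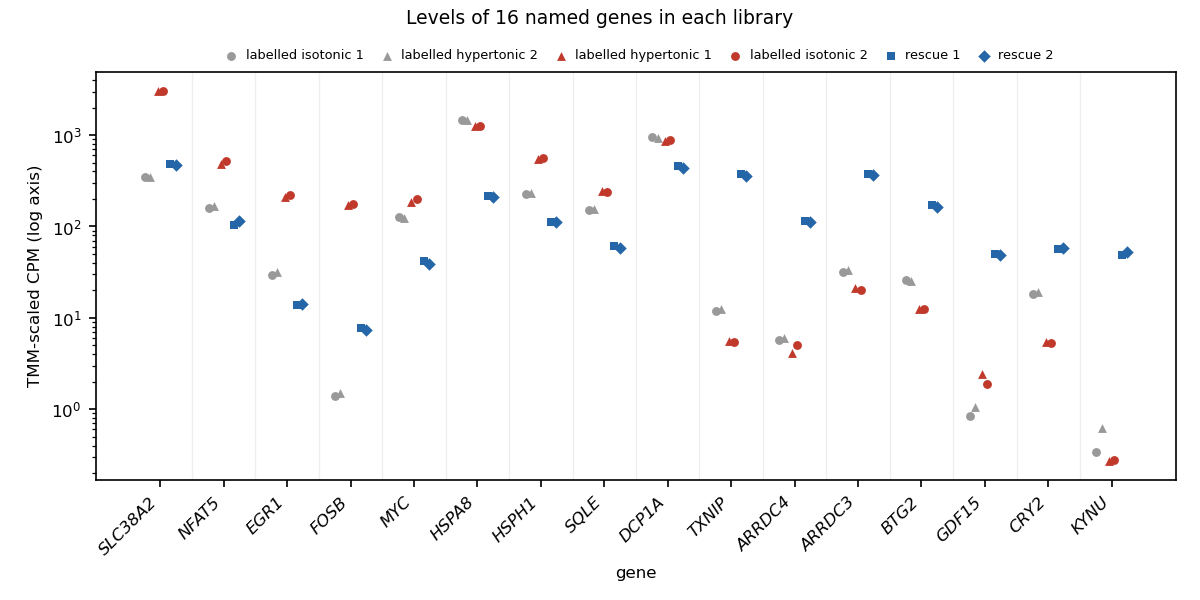
Level of 16 genes (TMM-scaled CPM, log axis) in each of the 6 libraries; red marks the osmotic-response pair, blue the rescue libraries and grey the libraries labelled isotonic 1 and hypertonic 2. In rescue SLC38A2, at 480 and 465 CPM, lies near its grey points while TXNIP, ARRDC4 and GDF15 lie far above theirs.

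Genes of osmolyte transport were lower in rescue but did not all reach the same distance. SLC38A2, the carrier of small neutral amino acids (chromosome 12, 46358189 to 46372867, minus strand), was at 3050 and 3074 CPM in the pair and 480 and 465 CPM in rescue, 6.48-fold lower. NFAT5 (chromosome 16, 69565094 to 69704666, plus strand) was at 486 and 515 CPM versus 103 and 114.5 CPM, which is below its 160 and 168 CPM in isotonic 1 and hypertonic 2. Both genes served to choose the pair, so these values describe the choice. SLC5A3, the inositol carrier, was at 789 and 808 CPM in the pair and 269 and 277 CPM in rescue, and SLC6A6, the taurine carrier, at 416 and 406 versus 161.5 and 158 CPM. Both were above isotonic 1 and hypertonic 2, where SLC5A3 was at 170.3 and 181 CPM and SLC6A6 at 109 and 104 CPM. Their rows overlap those of MRPS6 and GRIP2.

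The aldose reductase gene AKR1B1, whose enzyme makes sorbitol, was less far down, at 189.7 and 183 CPM in the pair and 114 and 109.8 CPM in rescue, 1.67-fold. SGK1, a salt-induced kinase gene, overlapped between the sides, at 88.6 and 95.7 CPM in the pair and 103 and 91.7 CPM in rescue. Its level in isotonic 1 and hypertonic 2 was 14.8 and 16.8 CPM, so SGK1 in rescue stood at the level of the pair. S100A4 was at 17.5 and 15.3 CPM in the pair and 13.7 and 12.1 CPM in rescue. The carrier of sodium, potassium and chloride, SLC12A2, was 1.25 lower on the log2 scale. In all 5 of 12 genes were lower and 0 higher, and without SLC38A2 and NFAT5 3 of 10 (all genes: 11.8% lower). In the labelled test 1 of 14 fell (all genes: 13.8%); SLC38A2 had a log2 fold change of -1.84 (adjusted p = 0.398) and NFAT5 of -1.58 (adjusted p = 0.208). Without the library labelled hypertonic 1 the value of SLC38A2 was 0.43, the opposite direction.

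Some channels and pumps that set cell volume were lower and others higher. ATP1B3, a beta subunit of the sodium pump, was at 339 and 351 CPM in the pair and 99.4 and 98.9 CPM in rescue. LRRC8D, a subunit of the volume-regulated anion channel, was higher, at 48.4 and 50.4 CPM in rescue versus 11.02 and 12.1 CPM, and the water channel AQP11 was 4.46-fold higher. SGK2 was at 12.5 and 13.6 CPM in rescue and 0.926 and 1.38 CPM in the pair, and rose in the labelled test (log2 fold change 4.23, adjusted p = 0.0186). Of 25 such genes 6 were lower and 6 higher (all genes: 11.8% and 14.2%), or 2 and 7 with library totals. Of 18 amino acid carriers 5 were lower and 1 was higher, and without SLC38A2 4 of 17 were lower and 1 higher (all genes: 11.8% and 14.2%). The higher one was SLC43A2 at 68.0 and 67.0 CPM in rescue and 12.3 and 12.7 CPM in the pair.

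**Figure D3:**
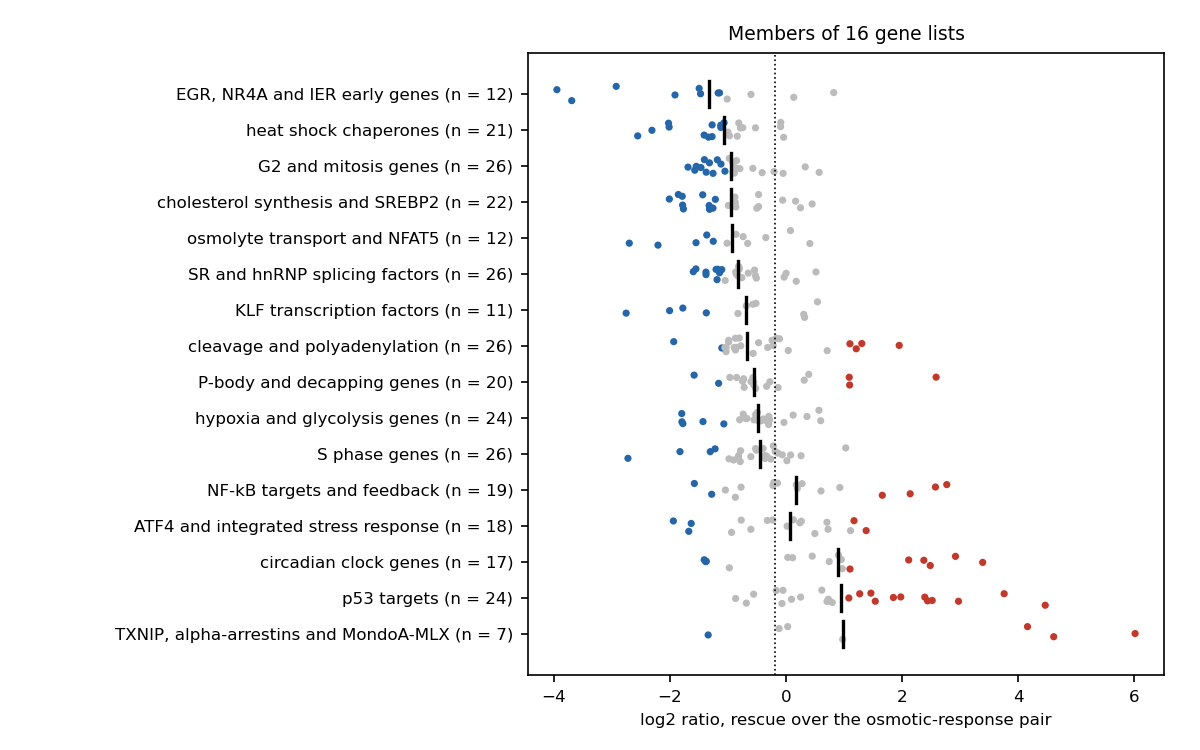
Log2 ratio of rescue to the osmotic-response pair (horizontal axis) for the members of 16 gene lists with a mean of at least 5 CPM; blue points had every ratio lower by 2-fold, red points higher, black bars are list medians and the dotted line is the median of all genes at -0.18. The early gene list lies furthest left, and the p53, clock and alpha-arrestin lists lie to the right.

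Heat shock chaperones were lower in rescue, most of all HSPA8, the constitutive cytosolic HSP70 gene (chromosome 11, 123057489 to 123063230, minus strand), whose promoter is shown above. This span is from GENCODE, and the promoter window, set by the RefSeq start, lies inside it. HSPA8 was at 1250 and 1271 CPM in the pair and 218 and 213 CPM in rescue, 5.86-fold lower. Isotonic 1 and hypertonic 2 were higher than the pair at 1465 and 1478 CPM, and HSPA8 fell in the labelled test (log2 fold change -2.66, adjusted p = 0.00832). HSPH1, an HSP110 exchange factor, was at 553 and 555 CPM versus 112 and 111 CPM, and below its 226 and 235 CPM in isotonic 1 and hypertonic 2. The co-chaperones DNAJB1 and DNAJA1 were 4.06 and 4.03-fold lower, and DNAJB1 overlaps TECR. HSPA1A, the stress-induced HSP70 gene, differed less, at 273 and 265 versus 156 and 150.4 CPM, and its near-identical copy HSPA1B makes the value uncertain.

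In all 11 of 21 chaperone genes were lower and 0 higher (all genes: 11.8% and 14.2%), with a list median 0.88 below that of all genes. Of 23 tested as labelled 10 fell and 1 rose, against 13.8% and 9.86% of all genes. The one that rose was HSPA4L, at 5.02 and 5.23 CPM in rescue and 0.268 and 0.413 CPM in the pair. HSF1, the master factor of the heat shock response, was at 203 and 192 CPM in the pair and 83.7 and 79.8 CPM in rescue (adjusted p = 0.0941). With library totals as the scaling 4 of the 21 were lower, beside 610 of all 13310 genes. Endoplasmic reticulum chaperones stood closer to all genes, with 1 of 18 lower in rescue (all genes: 11.8%), the co-chaperone gene DNAJB9.

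The division genes stood below the pair after rescue. BIRC5, the survivin gene, was at 178 and 173 CPM in the pair and 55.0 and 54.2 CPM in rescue, and MKI67, a marker of dividing cells, was at 1105 and 1062 versus 399 and 388 CPM. The spindle genes TPX2 and ASPM were 2.92 and 2.89-fold lower and BUB1B, of the spindle checkpoint, 2.97-fold. Of 26 genes 12 were lower and 0 higher (all genes: 11.8% and 14.2%), or 6 lower with library totals, and 18 of 26 fell as labelled, against 13.8% of all genes. CDK1 was at 85.5 and 83.6 CPM in the pair and 108 and 105 CPM in rescue, and CDC25C at 10.99 and 11.6 versus 16.8 and 16.9 CPM; neither passed. Fewer cells in these phases and less RNA per cell cannot be told apart in bulk RNA.

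CCNE1, cyclin E1, was at 112 and 116 CPM in the pair and 17.4 and 17.2 CPM in rescue, below its 64.1 and 63.8 CPM in isotonic 1 and hypertonic 2, and it fell in the labelled test (adjusted p = 0.0257). RRM2, of ribonucleotide reductase, was at 384 CPM in both libraries of the pair and 111 and 106 CPM in rescue (adjusted p = 0.00832). From 26 genes of S phase, 4 were lower in rescue than in the pair (15.4%), near the 11.8% of all genes, and 11 fell as labelled (all genes: 13.8%). MYC, a transcription factor of cell growth (chromosome 8, 127735434 to 127741434), was at 185.5 and 199.5 CPM in the pair, 42.2 and 39.2 CPM in rescue, and fell (log2 fold change -1.92, adjusted p = 0.0215). MYC stood at 127 and 123.3 CPM in isotonic 1 and hypertonic 2, so rescue was the lowest of the 3 states.

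Of 40 replication histone genes 13 were lower and 3 higher (all genes: 11.8% and 14.2%), and the lower ones numbered 9 with upper quartile scaling and 4 with library totals. HIST1H2BJ was at 247 and 235 CPM in the pair and 72.2 and 67.5 CPM in rescue, while HIST1H2BE was at 5.97 and 6.92 versus 39.1 and 37.8 CPM. Both are uncertain because histone genes have near-identical relatives.

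Several cholesterol synthesis genes were lower in rescue. SQLE, the squalene epoxidase gene, was at 244 and 237 CPM in the pair and 61.0 and 58.5 CPM in rescue, and fell in the labelled test (adjusted p = 0.0281). The isomerase gene IDI1 was 3.61-fold lower and the lanosterol synthase gene LSS 3.44-fold; neither passed as labelled. Of 22 genes 10 were lower and 0 higher (all genes: 11.8% and 14.2%), or 5 lower with library totals, and 10 of 24 fell (all genes: 13.8%). SC5D, a late enzyme of the pathway, was level at 33.1 and 32.0 CPM in the pair and 31.4 and 31.2 CPM in rescue.

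Some hypoxia and glycolysis genes were lower. VEGFA, the vascular growth factor gene, was at 99.4 and 97.8 CPM in the pair and 28.6 and 28.3 CPM in rescue, close to the 27.9 and 27.1 CPM of isotonic 1 and hypertonic 2. HK2, a hexokinase, was at 98.1 and 103 versus 29.98 and 27.8 CPM. HK1 was 1.43 lower on the log2 scale and fell (adjusted p = 0.0278), and the phosphofructokinase gene PFKP was 1.77 lower. Of 24 genes 5 were lower and 0 higher (all genes: 11.8% and 14.2%), and 3 of 26 fell as labelled, near the 13.8% of all genes.

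Some factors of RNA processing were lower. SRSF2 and SRSF1, splicing factors of the SR family, were 1.59 and 1.55 lower on the log2 scale, and both fell (adjusted p = 0.0119 and 0.0108). SRSF1 was at 482 and 492 CPM in the pair and 167 and 165 CPM in rescue. Of 26 SR and hnRNP genes 9 were lower and 0 higher (all genes: 11.8% and 14.2%), or 4 lower with upper quartile scaling and 2 with library totals, and 11 fell (all genes: 13.8%). Of 12 rows for 11 paraspeckle and FET genes 2 were lower, SFPQ and EWSR1 (all genes: 11.8%), or 0 with library totals. Of these rows 8 fell (all genes: 13.8%). RBBP6, of 3' end cleavage, was at 333 and 346 CPM in the pair and 90.3 and 87.6 CPM in rescue, whereas CSTF2T was higher, at 42.2 and 39.9 versus 10.99 and 10.1 CPM. In that cleavage list 2 of 26 were lower and 4 higher (7.69% and 15.4%), close to the 11.8% and 14.2% of all genes, so the count is no result about the list.

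Among P-body genes, DCP1A, which the transgene carries, was at 864 and 886 CPM in the pair, 460 and 437 CPM in rescue, and 942 and 936 CPM in isotonic 1 and hypertonic 2. It was 1.95-fold lower in rescue than in the pair and fell as labelled (adjusted p = 0.00953), and reads of the transgene that match the gene are in these counts. Its paralog DCP1B was higher, at 68.2 and 73.1 CPM in rescue versus 11.8 and 11.5 CPM in the pair, which is above its 44.8 and 45.2 CPM in isotonic 1 and hypertonic 2. EDC4, the scaffold of decapping, was 2.99-fold lower and fell (adjusted p = 0.0207). Of 20 P-body genes 2 were lower and 3 higher (10% and 15%), near the 11.8% and 14.2% of all genes, and 8 fell (all genes: 13.8%). DCP1A overlaps CACNA1D, and DCP1B overlaps CACNA1C.

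On the other side, TXNIP (chromosome 1, 145992435 to 145996600, minus strand) was at 371 and 353 CPM in rescue and 5.58 and 5.45 CPM in the pair, 64.5-fold higher. It stood at 11.9 and 12.6 CPM in isotonic 1 and hypertonic 2, and it rose in the labelled test (log2 fold change 5.32, adjusted p = 0.012). ARRDC4 (chromosome 15, 97960698 to 97973838, plus strand) was at 115 and 112 CPM in rescue versus 4.11 and 5.00 CPM, 24.5-fold higher (labelled log2 fold change 4.49, adjusted p = 0.00832). ARRDC3, an arrestin of receptor traffic, was at 375 and 365 CPM versus 21.2 and 20.1 CPM. ARRDC1, of the same family, was level at 20.6 and 19.2 CPM in rescue and 19.9 and 19.05 CPM in the pair.

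MLXIP, the gene of MondoA itself, was lower, at 37.4 and 37.2 CPM in rescue versus 94.7 and 94.2 CPM, and fell (adjusted p = 0.00916). MLX was at 27.8 and 25.9 CPM in rescue and 29.9 and 28.4 CPM in the pair. ARRDC2 was 0.98 higher on the log2 scale without reaching 2-fold in every ratio. Thus 3 of 7 genes of this list were higher and 1 was lower (all genes: 14.2% and 11.8%), and 5 of 9 rose as labelled (all genes: 9.86%). TXNIP and ARRDC4 were given beforehand, with SLC38A2 and NFAT5, as markers of the state of the pair. The pair was also chosen by its whole profiles, so their direction is not independent of the choice.

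Targets of p53 were higher in rescue in 12 of 24 cases and lower in 0 (all genes: 14.2% and 11.8%). GDF15, a stress cytokine gene, was at 50.5 and 48.1 CPM in rescue and 2.40 and 1.88 CPM in the pair (labelled log2 fold change 4.85, adjusted p = 0.0143). BTG2, an antiproliferative gene, was at 173 and 165 CPM versus 12.5 and 12.3 CPM. TP53INP1 was at 128 and 128 CPM versus 16.8 and 15.8 CPM, and the death receptor gene FAS at 88.5 and 86.7 versus 14.8 and 15.6 CPM. As labelled, 12 of 24 rose and 0 fell, against 9.86% and 13.8% of all genes. TP53INP1 overlaps NDUFAF6, and FAS overlaps ACTA2.

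The best known target moved less. CDKN1A, the p21 inhibitor of the cell cycle, was at 490.5 and 455 CPM in rescue, 286 and 284 CPM in the pair, and 107 and 104 CPM in isotonic 1 and hypertonic 2, so it was 1.66-fold above the pair (labelled adjusted p = 0.243). BAX was at 46.7 and 43.2 CPM in rescue versus 47.2 and 47.0 CPM in the pair. PMAIP1, a death gene also known as NOXA, was below the pair, at 97.7 and 91.6 versus 171 and 173.5 CPM. In the BCL2 family BBC3, which encodes PUMA, was 5.42-fold higher and rose (adjusted p = 0.00832), BCL2 and BID were 1.87 and 1.84 lower on the log2 scale and fell (adjusted p = 0.00915 and 0.00934), and 3 of 14 genes were lower and 3 higher (all genes: 11.8% and 14.2%).

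ATF4, a factor of the integrated stress response, was at 589 and 579.5 CPM in the pair and 188 and 179 CPM in rescue, and PPP1R15A, the phosphatase subunit of its feedback, at 206 and 205 versus 56.0 and 51.4 CPM. SESN2 was higher at 141 and 134 CPM in rescue versus 54.5 and 50.8 CPM, and so was DDIT3, which encodes CHOP, at 27.8 and 27.9 versus 12.3 and 12.2 CPM. ASNS, the asparagine synthetase gene, differed by 1.20-fold. In the list of the ATF4 response 3 of 18 were lower and 2 higher (16.7% and 11.1%), near the 11.8% and 14.2% of all genes.

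Clock genes went both ways. The period gene PER1 was 4.33-fold higher in rescue and CRY2 was at 56.5 and 57.8 CPM versus 5.46 and 5.27 CPM. The PAR-domain factors were higher as well: HLF at 11.1 and 12.2 versus 1.65 and 1.25 CPM, TEF at 119 and 110.4 versus 20.7 and 20.2 CPM, and DBP at 54.8 and 51.3 versus 10.8 and 9.49 CPM. All 3 rose as labelled (adjusted p = 0.0108, 0.0433 and 0.00928). ARNTL, which encodes the partner of CLOCK, and NFIL3, a repressor of the same sites as the PAR-domain factors, were 2.65 and 2.61-fold lower, and CRY1 was 2.58-fold lower. Of 17 genes 6 were higher and 3 lower (all genes: 14.2% and 11.8%), or 10 and 1 with library totals, and of 19 tested 6 rose and 1 fell (all genes: 9.86% and 13.8%). DBP overlaps SPHK2.

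Of 19 NF-kB genes 4 were higher and 2 lower (21.1% and 10.5%, beside 14.2% and 11.8% of all genes). TRAF1 was at 16.2 and 16.9 CPM in rescue and 2.29 and 2.40 CPM in the pair, far below the 90.5 and 87.4 CPM of isotonic 1 and hypertonic 2. BIRC3, an inhibitor of apoptosis, was likewise between them, at 78.8 and 77.2 CPM in rescue, 13.8 and 12.2 CPM in the pair and 148 CPM in both other libraries. BCL3 was above both, at 30 and 28.1 CPM in rescue versus 6.73 and 6.30 CPM in the pair and 13.8 and 14.2 CPM elsewhere. NFKB1 was lower, at 99.3 and 101 versus 242 and 243 CPM. Of 6 cytokine genes of at least 5 CPM 3 were lower and 3 higher (all genes: 11.8% and 14.2%). Another 11 listed cytokine genes were below that level and were not counted. CCL2 was lower, at 4.98 and 4.87 versus 20.6 and 18.8 CPM, and IL24 higher, at 22.6 and 20.7 versus 2.71 and 3.31 CPM.

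Some genes were near silent in the pair and present in rescue. KYNU, the kynureninase gene of tryptophan breakdown (chromosome 2, 142877498 to 143055832), was at 48.1 and 52.0 CPM in rescue and 0.268 and 0.275 CPM in the pair. The ratio was 135-fold with 0.1 CPM added to both sides, which understates a ratio where 1 side is this low. SLC16A6, a monocarboxylate carrier, was at 54.7 and 51.2 versus 0.469 and 0.325 CPM, and CYP4F2, a fatty acid hydroxylase, at 14.3 and 14.4 versus 0.0892 and 0.125 CPM. EYA4, a transcriptional coactivator, was at 9.33 and 11.3 versus 0.179 and 0.125 CPM, and the mucin gene MUC19 at 24.4 and 24.0 versus 0.469 and 0.425 CPM. All of these were under 1 CPM in isotonic 1 and hypertonic 2, and all 5 rose as labelled, with adjusted p from 0.00832 to 0.0105. A list of 8 such genes, chosen in an earlier reading of these data, was higher in 8 of 8, which is no independent support.

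MS4A4A, SMCO3 and SERPINB11 completed the 10 largest ratios among the counted genes together with TXNIP and ZNF441. MS4A4A was at 12.3 and 14.5 CPM in rescue and 0.112 and 0.125 CPM in the pair, and SERPINB11 was 40.1-fold higher. The rows of MS4A4A, SMCO3, SERPINB11 and SLC16A6 overlap those of MS4A4E, C12orf60, SERPINB3 and ARSG, and CYP4F2 has close relatives, so their values are uncertain. The endothelial markers VWF and TEK were also higher, at 9.98 and 9.89 versus 2.02 and 2.02 CPM and at 11.1 and 10.4 versus 1.99 and 1.62 CPM, while PECAM1 was lower at 12.5 and 11.1 versus 27.1 and 27.8 CPM. The 6 endothelial markers summed to 42.2 and 41.0 CPM in rescue and 38.7 and 39.1 CPM in the pair. In the opposite direction, the 4 genes CALB1, THEMIS, AGR2 and AJAP1, also chosen earlier, were all lower; CALB1, a calcium-binding protein gene, was at 55.9 and 54.4 CPM in the pair, 12 and 13.4 CPM in rescue, and 0.183 and 0.227 CPM in isotonic 1 and hypertonic 2.

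Zinc finger genes with ZNF symbols, the largest of the 41 lists used here, were higher in rescue more often than all genes. Many of them encode KRAB repressors and lie in clusters on chromosome 19. Of 429 such genes 219 were higher and 15 lower (all genes: 14.2% and 11.8%), with a median log2 ratio of 1.11. Their median level was 27.3 and 27.2 CPM in rescue, 12.9 and 13.0 CPM in the pair, and 22.2 and 21.99 CPM in isotonic 1 and hypertonic 2. ZNF441 (chromosome 19, 11767000 to 11784078) was at 69.2 and 71.2 CPM in rescue and 0.870 and 0.950 CPM in the pair, and ZNF727 was at 35.5 and 38.8 versus 0.948 and 0.887 CPM. ZNF563 was at 11.3 and 11.8 versus 0.301 and 0.212 CPM and rose as labelled (adjusted p = 0.0419), and ZNF682 was 4.93 higher on the log2 scale. As labelled, 54 of 502 rose and 19 fell (all genes: 9.86% and 13.8%). The share that rose was near that of all genes, so it is no result about the group. The share that fell was below that of all genes. Similar sequences within the family make single values uncertain.

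**Figure D4:**
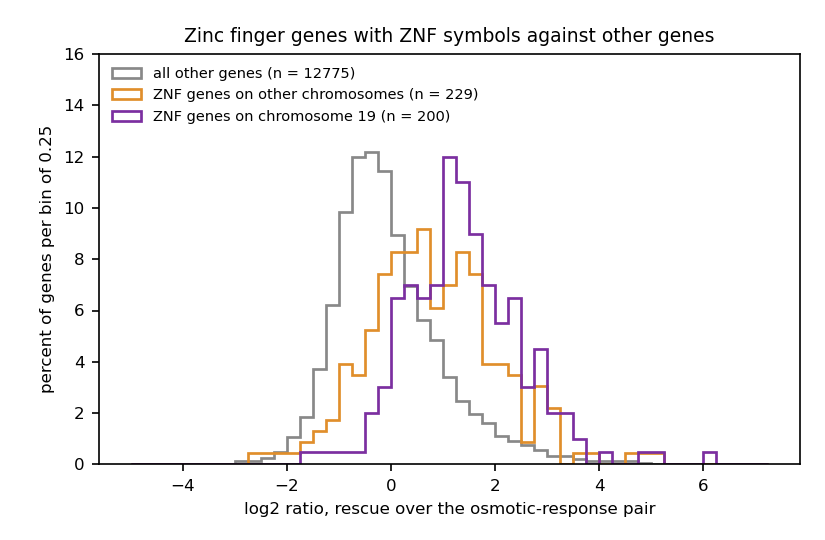
Share of genes (vertical axis, percent per bin of 0.25) by log2 ratio of rescue to the osmotic-response pair (horizontal axis) for ZNF genes on chromosome 19 (purple, 200 genes), ZNF genes elsewhere (orange, 229 genes) and all other genes (grey), each of at least 5 CPM. Both ZNF curves lie to the right of the grey curve, with medians of 1.32 on chromosome 19 and 0.70 elsewhere.

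The position of a zinc finger gene went with its ratio. On chromosome 19, 124 of 200 ZNF genes were higher in rescue (62%, median log2 ratio 1.32), and on other chromosomes 95 of 229 (41.5%, median 0.70). The other genes of chromosome 19 did not share this, with 81 of 745 higher (10.9%) and a median of -0.39, beside 13.1% of other genes elsewhere. Of all genes counted higher, 11.7% had ZNF symbols, and of those counted lower, 0.965%.

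Gene length and level also differed between the classes. Genes under 10 kb were higher in rescue in 9.65% of 2042 cases and genes over 100 kb in 17.8% of 3057, while the lower share ran only from 11% to 13%. The median level over the 4 libraries was 69.5 CPM for genes lower in rescue and 16.8 CPM for genes higher in it. Single-exon genes were 1.67% of the lower and 1.92% of the higher genes. Whether counts of unspliced RNA enter these shares was not tested.

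Ribosomal protein and mitochondrial genes had list medians near that of all genes, while their counted shares were below those of all genes. Of 83 cytosolic ribosomal protein genes 0 were lower and 1 was higher (0% and 1.2%, beside 11.8% and 14.2% of all genes). The higher one was RPL39L, at 40.4 and 40.7 CPM in rescue against 14.3 CPM in both libraries of the pair. Of the 13 mitochondrially encoded genes 0 were lower and 0 higher, or 1 higher with library totals. The median of the ribosomal list, -0.22, was -0.04 with upper quartile scaling and 0.16 with library totals. That of the mitochondrial list, -0.19, was -0.005 and 0.19, so neither has a direction that holds.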

How the data were processed

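For each library the authors deposited a table of raw gene counts, whole numbers that were not normalized. The reads went through bcl2fastq, Bowtie2, TopHat2 and bedtools with build GRCh38, per the submitters' processing notes; tool versions, the annotation and strand use are not stated there. Rows whose spans hold 7SL RNA took between 2.46% and 3.45% of the counts of a library, so counts may cover whole gene spans, introns included, and overlapping genes may share reads. Overlaps are not given in the text for every gene. AQP11 overlaps CLNS1A, CSTF2T overlaps PRKG1, SRSF2 overlaps MFSD11 and DDIT3 overlaps MARS, among others, and their values carry the same limit. Of 19940 rows, 33 names stood on more than 1 row and were not named; 19874 names had 1 location in GENCODE release 29.

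Total counts were 90196278 to 105991428. CPM values were scaled with TMM factors over all 6 libraries (edgeR 4.0.16, limma 3.58.1, R 4.3.3). Ratios used group means plus 0.1 CPM. The pair against rescue was described with no test. Rescue against hypertonic as labelled was tested with the edgeR quasi-likelihood test (filterByExpr, TMM, Benjamini-Hochberg, threshold 0.05, two-sided) and with DESeq2 1.42.0 as an alternative; the steps were tested on simulated data. Named genes were the 10 largest falls and rises, up to 4 counted members of each of 41 lists and a fixed set; other list members named were chosen after their values were seen. The members and lists were chosen with earlier results of these data known. Alternatives changed the scaling, the level and fold limits, the pseudocount, the filter, the tool, the replicate block and the libraries used. Tables and figures were made with Python 3.11.15, pandas 2.3.3 and matplotlib 3.10.9.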

Additional observations from a re-analysis of the deposited data

How the results depend on the processing

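Against the pair, the count of lower genes was 1000 with upper quartile scaling, 610 with library totals and 3667 with a limit of 1.5-fold, and the count of higher genes was 2913 with library totals, 2859 with a level limit of 1 CPM and 2952 with 1.5-fold; the cause was not tested beyond the looser limits themselves. DESeq2 size factors, a pseudocount of 1 CPM and leaving out each library kept both counts within 1.5 times. As labelled, upper quartile scaling gave 1448 lower genes and DESeq2 3341 higher ones. The fit of rescue 1 and 2 with hypertonic 1 alone, chosen after seeing the data, gave 7289 lower and 7705 higher genes, the spread coming from the 2 rescue libraries only. Leaving out 1 rescue or hypertonic library in the labelled test gave log2 fold changes of SLC38A2 from -2.69 to 0.43. Without hypertonic 1 the value was 0.43, on the other side of 0. Leaving out 1 isotonic library was not tried in that test. With the replicate block 0 genes passed by edgeR, and 4984 had an unadjusted p under 0.05. The deviations of rescue 1 and hypertonic 1 from their group means had a correlation of 0.0825 over 13100 genes. Hypertonic 1 and 2 were 2-fold apart at 2220 of these genes. That difference would hide a shared culture or batch, so the value does not tell whether same-numbered libraries belong together. The 2 libraries a side, and a labelled hypertonic group made of unlike libraries, limit every statement; at these totals 3 counts are at most 0.0333 CPM, for counting error only.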

Other observations

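ANKRD1, a target of the growth regulator YAP, was at 218 and 233 CPM in the pair and 50.1 and 45.2 CPM in rescue, and 2 of 15 YAP and TEAD targets were lower and 0 higher, a lower share of 13.3% near the 11.8% of all genes; the median of that list, -0.38, was 0.001 with library totals. Interferon-stimulated genes had 3 of 10 higher and 0 lower (all genes: 14.2% and 11.8%), among them the RNA sensor IFIH1 at 12.7 and 13.2 CPM in rescue versus 2.08 and 2.20 CPM, and the factor IRF1, which rose as labelled (edgeR quasi-likelihood test, adjusted p = 0.0158). Metallothionein MT1X was at 24.7 and 23.2 CPM in rescue and 7.28 and 6.88 CPM in the pair, and OSGIN1, an oxidative stress gene, at 22.1 and 19.9 versus 4.17 and 4.40 CPM. GCLM, of glutathione synthesis, was lower, at 14.0 and 13.7 versus 35.8 and 36.3 CPM. In that list of NRF2 targets and metallothioneins 1 of 15 was lower and 2 higher (6.67% and 13.3%, beside 11.8% and 14.2% of all genes), so the values are those of single genes.

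INTS6, of the Integrator complex, was at 92.8 and 93.7 CPM in the pair and 26.7 and 27.5 CPM in rescue, while INTS5 was at 6.74 and 7.04 versus 25.3 and 23.6 CPM. HEXIM2, which holds the elongation factor P-TEFb inactive, was higher at 10.3 and 10.6 versus 2.68 and 2.56 CPM. In the list of P-TEFb control and Integrator 5 of 26 genes were lower and 2 higher (19.2% and 7.69%, beside 11.8% and 14.2% of all genes), or 2 and 4 with library totals. CNOT1, the scaffold of the main deadenylase, was at 474 and 473 CPM in the pair and 197 CPM in both rescue libraries and fell as labelled (edgeR quasi-likelihood test, adjusted p = 0.0223). Of 19 deadenylase and BTG/TOB genes 3 were lower and 1 higher (15.8% and 5.26%, beside 11.8% and 14.2% of all genes), or 0 and 2 with library totals. The lower share is near that of all genes, so it is no result about the list. RUNX2, a bone lineage factor, was at 54.8 and 59.4 CPM in rescue, 19.4 and 19.8 CPM in the pair and 78.9 and 77.7 CPM in isotonic 1 and hypertonic 2; its row overlaps that of SUPT3H.

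The shares of some promoter letters differed between the classes. TATAAA was present in 5.01% of the matched promoters of genes lower in rescue and 7.33% of those higher, beside 5.56% of all genes of at least 5 CPM. TGGAAA, the core of the NFAT5 site, was present in 13.6% and 17%, beside 15.2%. Of the 100 largest falls and 100 largest rises, 72 and 68 promoters were matched. In these TATAAA was present in 11.1% and 19.1%, and TGGAAA in 9.72% and 23.5%. These shares describe letters only and carry no test.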
